A study of Homo sapiens with 39 samples.

Results

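The genes for the proteins of the cytosolic ribosome were followed as 1 family in a microarray study of 2 human B-lineage cell lines. Members were the probes whose symbol begins with RPL or RPS and a digit, with RPLP0, RPLP1, RPLP2 and RPSA. Of 93 probes with such a symbol, 13 belonged to RPS6K kinases, 1 to RPS4Y1 and 1 to a pseudogene, and these were left out. The probe of RPS19BP1, a binding partner of RPS19 that is not a ribosomal protein, was left out as well. This left 77 probes for 73 genes, of 20589 probes on the array. The members tested were 70 genes, of 11538 genes and unnamed probes in all, and comprised 39 proteins of the large subunit, 24 of the small subunit, the 2 stalk proteins RPLP1 and RPLP2, and 5 paralogs of standard proteins (RPL7L1, RPL26L1, RPL36AL, RPL39L and RPS27L). RPL10, RPL3L and RPL10L were detected on no array. RPLP0, RPSA, RPL22L1 and RPS27 were not analysed here.

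The lines were IM-9, B-lymphoblastoid cells transformed by Epstein-Barr virus and labelled sensitive, and U266, multiple myeloma cells labelled tolerant. Each was sampled untreated at 0 h and after 1, 3, 9 and 24 h with buffer or with 10 nM ch128.1Av, an antibody-avidin fusion against transferrin receptor 1, the main port of iron entry into cells. Of the 18 groups, 15 held 2 arrays and 3 held 3 arrays (treated IM-9 at 3 h, treated U266 at 1 h and at 9 h), for 39 arrays of total RNA. The untreated and buffer arrays of a line, 10 in each, are called its control arrays. No label says that replicates came from separate cultures, so the p values below measure the spread between arrays, which may be technical. A fall in a gene's signal in such bulk RNA cannot be told apart from fewer cells that carry it.

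A ribosome joins a small subunit, which reads the mRNA, to a large subunit, which forms the peptide bond and lets the new chain out through a tunnel. The RPS and RPL proteins coat and fold the ribosomal RNA of these subunits and are needed in equal numbers, except for the stalk proteins, which bind as dimers and call in the elongation factors. Most of their mRNAs start with a C followed by a run of pyrimidines, the 5′ terminal oligopyrimidine (TOP) tract, through which mTOR and LARP1 set how much of each mRNA is translated. An array measures only the mRNA level and shows nothing of its translation.

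The TOP tract is shown first because it is the sequence feature that sets this family apart from most genes. Promoter sequences of RefSeq (GRCh38.p14, 250 bases before to 50 bases after each start) were present for 61 of the 73 member genes. The lines below give 15 bases before the start and 15 bases from the start on. Capitals mark the unbroken run of C and T that begins at the start base, or the start base alone where there is no such run. The first 4 genes are those most different between the lines that have a sequence here and a tract, the next 4 changed at 24 h in IM-9, and the last 4 are paralogs of standard proteins.
RPL29 (chr3:51995881-51995910, minus strand): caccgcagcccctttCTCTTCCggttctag
RPL37A (chr2:216498829-216498858, plus strand): gcaccgcgtctcttcCTTTCTgggctcgga
RPL13 (chr16:89560667-89560696, plus strand): ttgcggggccgcttcCTTTCCgctcggctg
RPL26 (chr17:8383179-8383208, minus strand): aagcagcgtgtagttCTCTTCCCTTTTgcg
RPL28 (chr19:55385917-55385946, plus strand): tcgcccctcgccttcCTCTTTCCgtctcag
RPL41 (chr12:56116618-56116647, plus strand): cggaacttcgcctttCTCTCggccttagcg
RPS3A (chr4:151099613-151099642, plus strand): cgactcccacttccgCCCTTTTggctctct
RPS28 (chr19:8321481-8321510, plus strand): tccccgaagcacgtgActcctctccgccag
RPL26L1 (chr5:172958714-172958743, plus strand): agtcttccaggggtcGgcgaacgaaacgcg
RPS27L (chr15:63157463-63157492, minus strand): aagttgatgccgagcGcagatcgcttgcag
RPL36AL (chr14:49620612-49620641, minus strand): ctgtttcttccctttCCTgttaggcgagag
RPL7L1 (chr6:42879601-42879630, plus strand): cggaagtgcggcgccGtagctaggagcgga

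A C followed by at least 4 more C or T at a listed start was found in 41 of the 61 members (67.2%), against 660 of 8666 named genes tested that had a sequence (7.62%) and 1404 of 27305 genes of the whole table (5.14%). None of the 5 paralogs with a sequence had one (RPL7L1, RPL10L, RPL26L1, RPL36AL and RPS27L). Several standard proteins also lacked it at their listed starts, among them RPS28, RPL3, RPL4, RPL6, RPL32, RPS4X, RPS7 and RPS15. A tract at another start of these genes was not looked for. The core of the sites of ETS factors such as GABPA, CCGGAAG on either strand, lay in the 300-base promoters of 23 of the 61 members (37.7%), against 22.7% of the named genes tested and 12.2% of all. Read on the other strand it is CTTCCGG, so that it can overlap the tract, as in RPL29. The E-box bound by MYC and MAX, CACGTG, which reads the same on both strands, lay in 5 of the 61 members (8.20%), against 13.3% of the named genes tested and 8.77% of all. These matches describe the letters of the windows and say nothing of binding.

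Many members were among the brightest probes of an array. They made up 35 to 42 of the 100 brightest probes in IM-9 and 29 to 37 in U266. Whether the scanner was saturated was not tested. Of the 74 member probes that passed detection, 44 exceeded 50% of an array's highest raw intensity on at least 1 array, and between 19 and 41 member probes did so on any single array. Members made up 5.32 to 8.10% of the summed raw intensity of an IM-9 array and 4.31 to 7.50% of a U266 array. This share moved with the contrast of the array, taken here as its brightness ratio, the 75th over the 5th percentile of raw intensity. In IM-9 the array with the lowest ratio (3.97) had the share of 8.10% and the array with the highest ratio (9.29) the share of 5.32%. In U266 the array with the highest ratio, 11.7, had the share of 4.31%. The ratio differed between some groups that are compared below, and its values are given beside the main results.

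**Figure D1:**
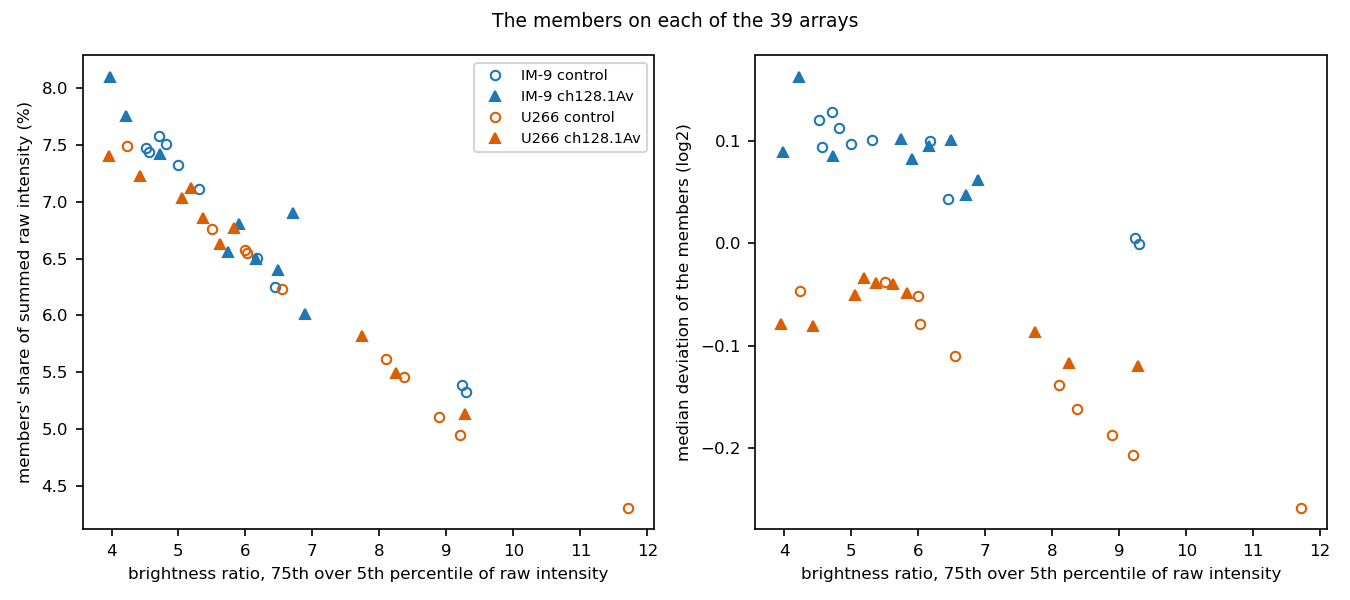
Members on each of the 39 arrays against the array's brightness ratio (x axis, 75th over 5th percentile of raw intensity): their share of the summed raw intensity in percent on the left, and the median over members of the log2 deviation from each member's mean over all arrays on the right. Circles are control arrays and triangles treated arrays, blue for IM-9 and orange for U266; arrays with a high ratio have a low share in both lines, from 8.10 down to 5.32% in IM-9 and from 7.50 down to 4.31% in U266.

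Facts of the whole series that bear on these values were few. Detected probes numbered 8967 to 10067 per array. The B cell markers FCER2, EBI3 and CR2 were detected on all 19 IM-9 arrays and on 0 U266 arrays, and CCND1, active in U266, on 0 and 20. Another probe of CR2 was detected on no array. CD79B, also of the B cell list, and IRF4, XBP1 and TNFRSF17, of the plasma cell list, were detected on all arrays of both lines. PRDM1, of the plasma cell list, was detected on all arrays by its brighter probe and on 4 IM-9 and 20 U266 arrays by another. SDC1, of the same list, was detected on 3 IM-9 and 13 U266 arrays by its brighter probe and on no array by another. The brighter SDC1 probe had mean log2 levels of 9.23 over all IM-9 arrays and 13.24 over all U266 arrays. Among markers of other cell types, CD3D, CD3E, CD14, LYZ and EPCAM were detected on no array, while NKG7 was detected on all 19 IM-9 arrays and HBB on all 20 U266 arrays, both at low levels (log2 7.94 and 8.26), COL1A1 on 2 and GNLY on 1 IM-9 array. Their part in the results below was not tested. MS4A1 was detected on 1 array and PAX5 on none, although both mark B cells. On 7 U266 arrays the highest raw intensity was over 60000: all 3 that had received ch128.1Av for 1 h, 1 of those treated for 3 h (replicate 2), 1 of those treated for 9 h (replicate 1) and the pair kept in buffer for 9 h. Over the members, arrays of 1 group correlated at 0.994 or more, which is a correlation across genes and not across replicates.

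The lines differed in many members, and IM-9 was more often the higher. All levels below are normalized log2 intensities, and a difference is called where the limma p, adjusted over all genes tested, is under 0.05. Over the 10 control arrays of each line, 41 of the 70 members were higher in IM-9, 7 were higher in U266 and 22 were not called. The share called, 68.6%, was below the 82.9% called among all genes tested, of which 40.8% were higher and 42.1% lower in IM-9. The median member difference was 0.14, against -0.0018 over all genes. Large-subunit genes were called higher in IM-9 in 28 of 39 cases and lower in 4, with a median of 0.34. Small-subunit genes were called higher in 11 of 24 cases and lower in 1, with a median of 0.05. Small-subunit genes more often had a bright probe, and the subunits were not compared at like probe brightness, which is taken up below. With arrays scaled to equal medians in place of quantile normalization, 61 members were higher in IM-9 and 1 in U266. The mean brightness ratios of the control groups at 0, 1, 3, 9 and 24 h were 5.34, 5.01, 4.90, 5.51 and 9.26 in IM-9 and 9.13, 9.05, 8.23, 5.77 and 5.11 in U266. With the ratio as a covariate 40 members were higher and 13 lower in IM-9. Counts under alternative fits, here and below, come without the share of all genes called in the same fit unless that share is stated. Such counts show how far the calls depend on the processing and are not set against all genes.

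The gap was widest for RPL29, a large-subunit protein that also binds heparan sulfate at the cell surface. It ran from 12.48 through a median of 12.59 to 12.73 on the IM-9 control arrays and from 9.41 through 9.71 to 10.03 on those of U266. Every IM-9 array was above every U266 array, and the difference of 2.87 (SE 0.069, n = 10 and 10) amounted to 7.30-fold (limma adjusted p = 4.27e-22). RPL37A, a zinc-binding protein of the large subunit, had its lowest, median and highest arrays at 11.30, 11.75 and 11.87 in IM-9 and at 8.68, 8.85 and 9.03 in U266. These groups were also fully apart, by 2.86 (SE 0.045) or 7.25-fold (adjusted p = 4.04e-26). RPL13, a large-subunit protein, was 3.14-fold higher in IM-9 (1.65, SE 0.054), with arrays from 12.65 to 12.95 against 11.06 to 11.35. RPS15, needed for the export of small-subunit precursors from the nucleus, was 2.73-fold higher (1.45, SE 0.070), from 12.15 to 12.52 against 10.70 to 11.23.

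A further 4 members with the largest differences were each a little over 2-fold higher in IM-9, again with no overlap between the control arrays of the lines. RPS27L, a paralog of RPS27 that p53 induces, ran from 13.82 to 14.28 in IM-9 and from 12.43 to 13.26 in U266 (1.19, SE 0.044, 2.28-fold). RPL26, which sits at the tunnel exit and raises translation of p53 mRNA, ran from 14.88 to 15.35 and from 13.72 to 14.11 (1.16, SE 0.053, 2.23-fold). RPL22, the protein that the small viral RNA EBER1 binds in cells infected with Epstein-Barr virus, ran from 12.15 to 12.59 and from 11.04 to 11.43 (1.05, SE 0.036, 2.08-fold). RPL34 ran from 12.19 to 12.61 and from 11.09 to 11.58 (1.06, SE 0.039, 2.09-fold), but its second probe did not show the difference (-0.01, adjusted p = 0.852). In all, 10 of the 70 members were called and at least 2-fold higher in IM-9, and 1 in U266. Among the 11468 other genes tested these numbers were 999 and 1010. The differences of the 8 members with values in this and the previous paragraph stayed called without any single control array and in each alternative processing in which they were measured. RPL26 and RPS27L were not part of the one without bright probes.

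U266 was clearly the higher in 1 member, the paralog RPL39L, which takes the place of RPL39 beside the exit tunnel and is known mainly from testis and cancer cells. Its lowest, median and highest arrays were 10.29, 10.42 and 10.58 in IM-9 and 11.55, 11.71 and 11.99 in U266. The groups did not overlap, and U266 was 2.51-fold higher (difference of -1.32 for IM-9 minus U266, SE 0.050, adjusted p = 5.46e-18). The standard protein RPL39 differed by 0.14 in the other direction (SE 0.060, adjusted p = 0.0394) with overlapping arrays, a call that was lost with the brightness ratio as a covariate (adjusted p = 0.0931) and without any 1 of 12 control arrays (adjusted p = 0.0510 to 0.0895). RPLP1, an acidic stalk protein, was lower in IM-9 by its mean (difference of -0.50, SE 0.149, adjusted p = 3.53e-03), but its arrays spread from 10.60 to 12.36 in IM-9 and from 11.36 to 12.55 in U266 and overlapped. On the 0 h arrays alone that difference was 0.14 (adjusted p = 0.738). RPL17 (-0.20), which lines the tunnel exit, was also called lower in IM-9, with overlapping arrays, but not with equal array medians (-0.03, adjusted p = 0.798) or on the 0 h arrays alone (-0.11, adjusted p = 0.272). The 4 remaining members called lower in IM-9, RPL30 (-0.23), RPL35 (-0.17), RPL18 (-0.15) and RPS13 (-0.10), overlapped too and turned to the opposite sign with equal array medians (0.09, 0.06, 0.19 and 0.25).

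**Figure D2:**
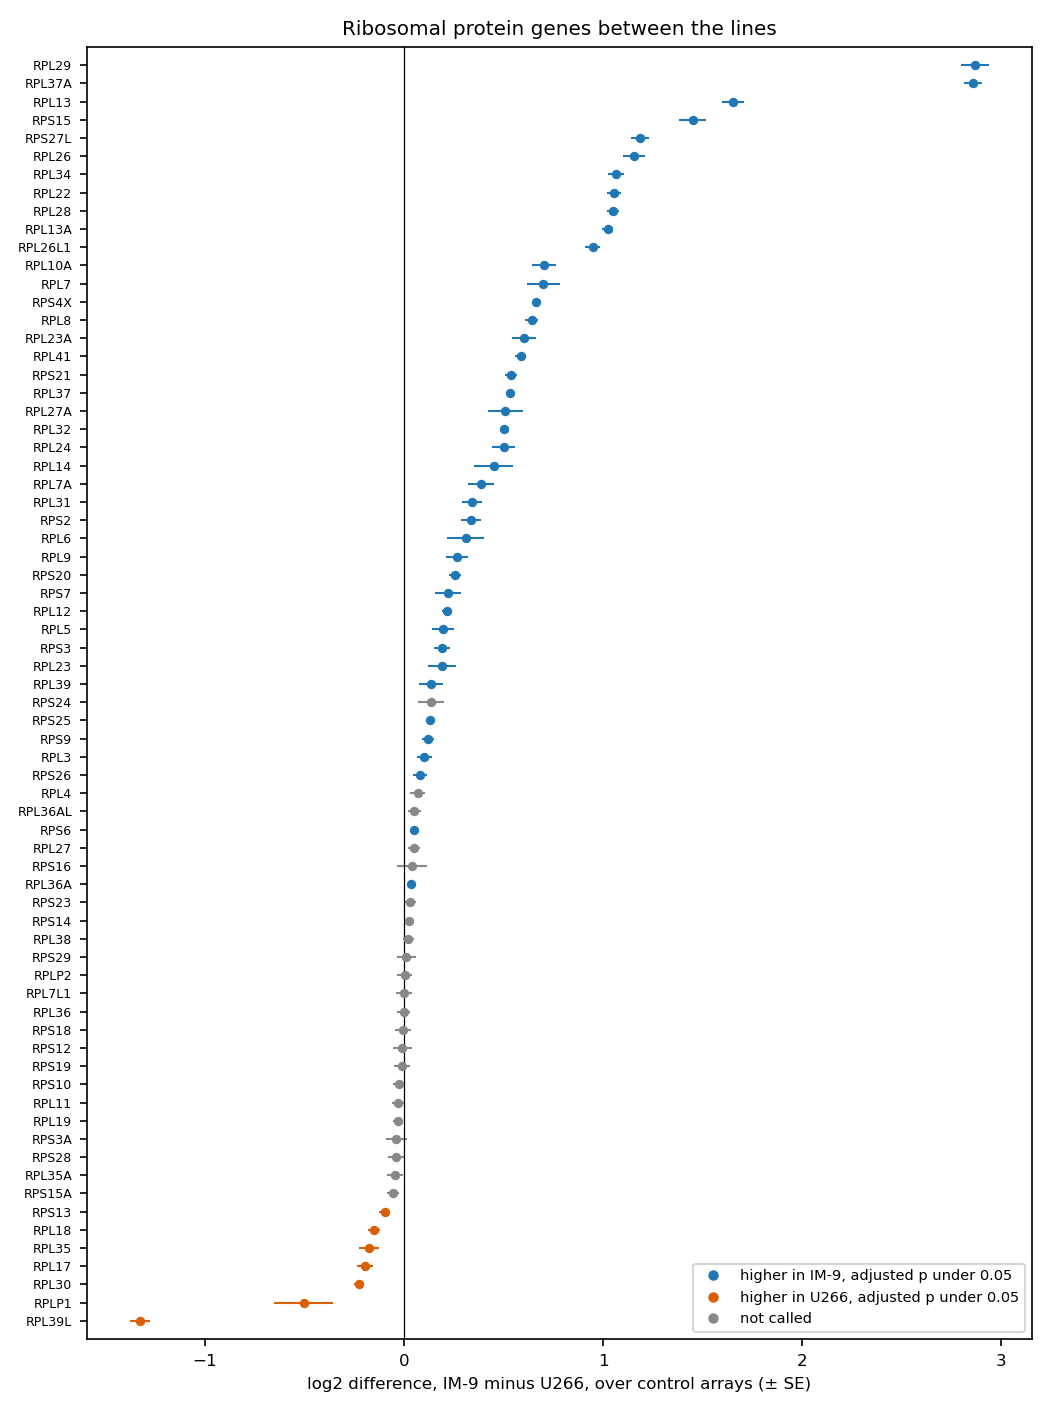
Log2 difference of IM-9 minus U266 over 10 control arrays per line (x axis, with SE bars) for each of the 70 members (y axis, ordered by the difference). Blue points were called higher in IM-9 (41 members), orange points higher in U266 (7), grey points were not called; RPL29 and RPL37A stand apart at 2.87 and 2.86 and RPL39L at -1.32.

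**Figure D3:**
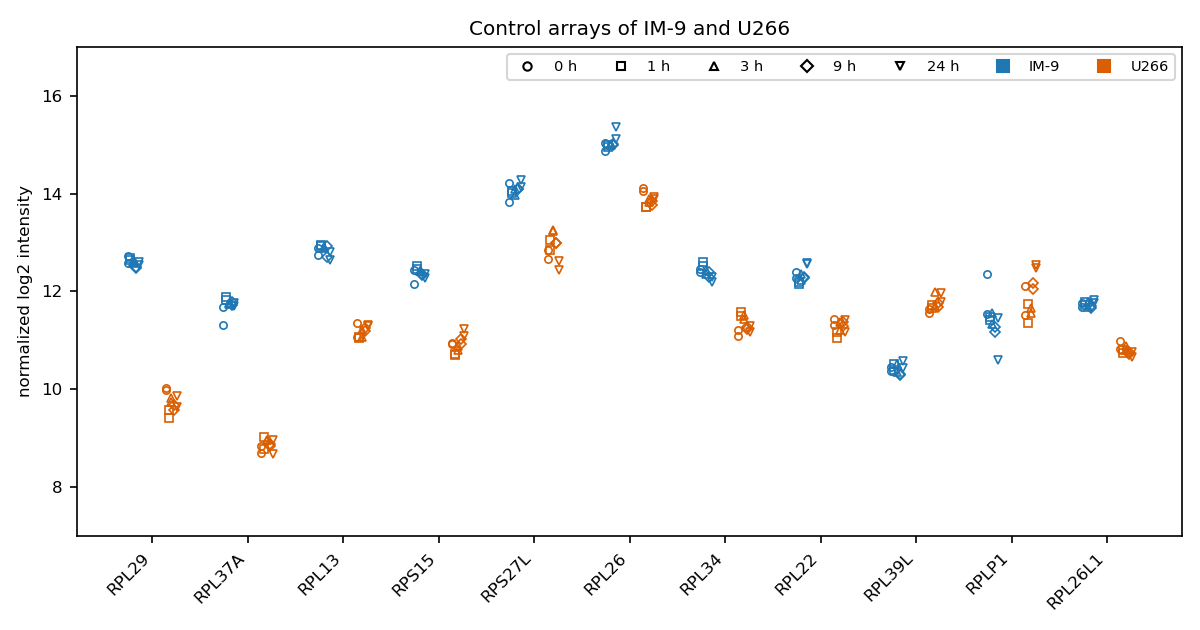
Normalized log2 intensity (y axis) of 11 members on each control array, blue for IM-9 and orange for U266, with marker shapes for the hours 0, 1, 3, 9 and 24. The lines do not overlap for any of the genes shown except RPLP1, which spreads from 10.60 to 12.36 in IM-9 and from 11.36 to 12.55 in U266.

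The paralog pairs were compared between the lines gene by gene, with no test between the genes of a pair. RPL26 and its near copy RPL26L1 were both higher in IM-9, by 1.16 and 0.95 (RPL26L1 11.66 to 11.83 against 10.65 to 10.98, 1.93-fold, adjusted p = 1.20e-17). RPL7, a large-subunit protein, was higher in IM-9 by 0.70 (SE 0.085, adjusted p = 4.41e-08), with arrays from 10.87 to 12.36 against 10.70 to 11.46 that overlapped. Its paralog RPL7L1, which acts in ribosome assembly, stood at the same mean in both lines (difference of 0.00, SE 0.040, adjusted p = 0.968). RPL36A differed by 0.04 (SE 0.012, adjusted p = 6.88e-03), close to background, as it was detected on 16 of 19 IM-9 and 9 of 20 U266 arrays. The difference in its paralog RPL36AL was not called (0.05, SE 0.035, adjusted p = 0.158). Whether a probe also catches a paralog or 1 of the family's many processed pseudogenes was not tested.

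Of the other members with known special roles, RPS4X, the X-linked small-subunit protein, stood at 14.62 to 14.79 in IM-9 and 13.83 to 14.19 in U266 (0.67, SE 0.017, adjusted p = 1.08e-21). RPL5 and RPL11, which with 5S rRNA form the particle that restrains MDM2, differed by 0.20 (SE 0.055, adjusted p = 2.15e-03) and by -0.03 (SE 0.030, adjusted p = 0.409). RPL3, close to the peptidyl transferase centre, differed by 0.10 (SE 0.037, adjusted p = 0.0124). RPS6, the target of the S6 kinases, differed by 0.05 (SE 0.022, adjusted p = 0.0270). RPS19, mutated in Diamond-Blackfan anaemia, and the stalk protein RPLP2 were not called (-0.01 and 0.00, adjusted p = 0.870 and 0.931). The control arrays of the lines overlapped for all of these except RPS4X. The probes of all 7 genes had exceeded 50% of an array's highest intensity on at least 1 array. The call of RPS6 was lost without any 1 of 5 control arrays (adjusted p = 0.0507 to 0.0763) and in 5 of 9 alternative processings, and that of RPL3 with the replicate block (0.0859) and on the 0 h arrays alone (0.456). With equal array medians RPL3, RPL5 and RPS6 stood at 0.41, 0.49 and 0.39, and with the brightness covariate RPL5 stood at 0.08.

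Size and brightness went together across the family. Among the 27 members whose probe stayed below that half-maximum on every array, 22 were higher and 3 lower in IM-9 (92.6% called) with a median of 0.53. Among the 43 members with a brighter probe, 19 were higher and 4 lower (53.5% called) with a median of 0.05. The part of signal saturation in this gap was not tested. Of all genes tested, 82.9% were called, with a median of -0.0018. Whether bright and dimmer probes of other genes differ in the same way was not tested. A larger share of small-subunit than of large-subunit members had a brighter probe. Whether the line difference is larger in large-subunit genes at like probe brightness was not tested.

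After 24 h of ch128.1Av, 17 of the 70 members changed in IM-9 against buffer, 12 of them upward. These are 24.3% of the members, against 13.4% of all genes tested, of which 6.15% were higher and 7.23% lower. All changes were small, the largest being 1.47-fold. The median member difference was 0.04, against -0.0017 over all genes. Large-subunit genes were called higher in 6 of 39 cases and lower in 3, small-subunit genes in 5 of 24 and 2, the stalk protein RPLP2 was higher, and no paralog was called. The higher members were RPS3A (0.55), RPL7A (0.50), RPL9 (0.48), RPL8 (0.46), RPS28 (0.41), RPLP2 (0.35), RPL3 (0.33), RPL4 (0.32), RPL37 (0.30), RPS18 (0.29), RPS20 (0.27) and RPS9 (0.25). The lower ones were RPS7 (-0.50), RPL28 (-0.36), RPL41 (-0.32), RPS21 (-0.23) and RPL36 (-0.22).

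The buffer arrays in this comparison had brightness ratios of 9.24 and 9.29, and the treated arrays had 6.71 and 3.97. With this ratio as a covariate 10 members were called, 3 higher and 7 lower, 6 of them among the 17. RPL8, RPL37, RPL3, RPL41, RPL28 and RPS7 remained called in that fit (at 0.28, 0.33, 0.44, -0.29, -0.34 and -0.59), while RPS3A (0.34, adjusted p = 0.0859) and RPS28 (0.20, adjusted p = 0.124) did not. The count also rested on single arrays: it was 9 without buffer replicate 2 and 6 without treated replicate 2.

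RPL37, a zinc-binding protein of the large subunit, had the smallest p. It stood at 8.85 and 8.97 with buffer and at 9.21 on both treated arrays, with no overlap. The rise of 0.30 (SE 0.041, n = 2 and 2, adjusted p = 2.37e-05) is 1.23-fold, but with equal array medians the difference was -0.06, or 0.09 above the shift of -0.15 in all genes. RPL8, which lies at the peptidyl transferase centre, stood at 14.07 and 14.08 with buffer and at 14.43 and 14.64 with ch128.1Av, a rise of 0.46 (SE 0.076, adjusted p = 2.45e-04, 1.37-fold). RPS3A, on the platform of the small subunit, stood at 13.91 and 13.93 with buffer. Its treated arrays, at 14.29 and 14.66, were both higher and far from each other (0.55, SE 0.119, adjusted p = 2.92e-03), and the call was lost without treated replicate 2 (adjusted p = 0.152) and with equal array medians (0.0820). RPS28, near the mRNA exit of the small subunit, went from 14.07 and 14.13 to 14.47 and 14.56 (adjusted p = 4.95e-03), a call also lost without treated replicate 2 (0.0950). The stalk protein RPLP2 went from 14.81 and 14.70 to 15.03 and 15.18 (0.35, adjusted p = 8.76e-03), and lost the call without buffer replicate 2 (0.121) or treated replicate 2 (0.190). RPL3 went from 14.85 and 14.88 to 15.26 and 15.13 (adjusted p = 8.57e-03), and lost the call without buffer replicate 2 (0.0526) or treated replicate 1 (0.0633).

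Of the falling members, RPL28, a protein that budding yeast lacks, stood at 10.09 and 10.18 with buffer and 9.79 and 9.76 with ch128.1Av. All treated arrays were lower, by 0.36 on average (difference of -0.36, SE 0.068, adjusted p = 1.04e-03, 1.28-fold). RPL41, the very short protein that bridges the subunits, fell from 9.39 and 9.47 to 9.16 and 9.06 (-0.32, SE 0.061, adjusted p = 1.04e-03, 1.25-fold). RPS7 was at 13.21 and 13.10 with buffer and at 12.72 and 12.59 with treatment (-0.50, SE 0.144, adjusted p = 0.0220). RPL8, RPL28 and RPL41 stayed called in every alternative processing run and without any of the 4 arrays, with RPL28 and RPL41 at -0.80 and -0.75 under equal array medians. The call of RPS7 was lost without treated replicate 2 (0.229) or either buffer array (0.105 and 0.0770), that of RPS21 without any 1 of the 4 arrays (0.0685 to 0.201), and that of RPL36 without buffer replicate 2 (0.513), treated replicate 1 (0.100) or treated replicate 2 (0.210).

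The same buffer arrays at 24 h enter the comparison of IM-9 buffer cells at 24 h with untreated cells at 0 h, so the values are set side by side and no overlap is drawn from them. There, 5 members were higher and 13 lower, 25.7% of the members against 16.2% of all genes (8.96% higher, 7.21% lower), and the authors' deposited log2 values gave 3 higher and 15 lower. The median member difference was -0.08, against 0.0016 over all genes. RPL37 stood at 8.40 and 8.43 at 0 h and so was higher with buffer at 24 h (0.50, SE 0.041, adjusted p = 9.75e-09) and higher again with ch128.1Av. RPL28, at 9.72 and 9.60 at 0 h, had risen with buffer by 0.47 (SE 0.068, adjusted p = 3.82e-05), and its treated arrays at 24 h stood between the 0 h and the buffer arrays. RPL41, at 9.04 and 9.22 at 0 h, had risen by 0.30 (adjusted p = 1.49e-03). The calls of RPL22 (0.24) and RPL36 (0.22) were lost without single arrays: RPL22 without replicate 2 at 0 h or either buffer array (adjusted p = 0.106 to 0.285), and RPL36 without replicate 2 at 0 h or at 24 h (0.214 and 0.389).

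The pattern was the reverse for RPL8, RPS3A and RPS28. RPL8 stood at 14.50 and 14.62 at 0 h and had fallen with buffer by 0.49 (difference of -0.49, SE 0.076, adjusted p = 9.98e-05), and its treated arrays at 24 h spanned the range of the 0 h arrays. RPS3A, at 14.65 and 14.36 at 0 h, had fallen by 0.58 (difference of -0.58, adjusted p = 1.47e-03), and RPS28, at 14.52 and 14.51, by 0.42 (difference of -0.42, adjusted p = 3.50e-03). Further falls with buffer were in RPL27A (10.52 and 10.22 to 9.43 and 9.39, -0.96, adjusted p = 1.46e-03) and RPL7 (12.36 and 11.93 to 10.87 and 11.58, -0.91, adjusted p = 1.66e-03). RPL7 lost the call without buffer replicate 1 (adjusted p = 0.0715). RPL32 (9.10 and 8.92 to 8.46 and 8.49, -0.54, adjusted p = 2.06e-07) and RPL4 (14.73 and 14.80 to 14.38 and 14.32, -0.42, adjusted p = 1.10e-03) fell as well, though the second probe of RPL32 gave 0.03. With equal array medians RPL27A (-0.57, adjusted p = 0.293), RPL7 (-0.61, 0.249), RPL32 (-0.30, 0.109) and RPS3A (-0.43, 0.0860) were not called. Brightness ratios were 6.17 and 4.52 at 0 h and 9.24 and 9.29 at 24 h, and with the ratio as a covariate 16 members were called, 6 higher and 10 lower.

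**Figure D4:**
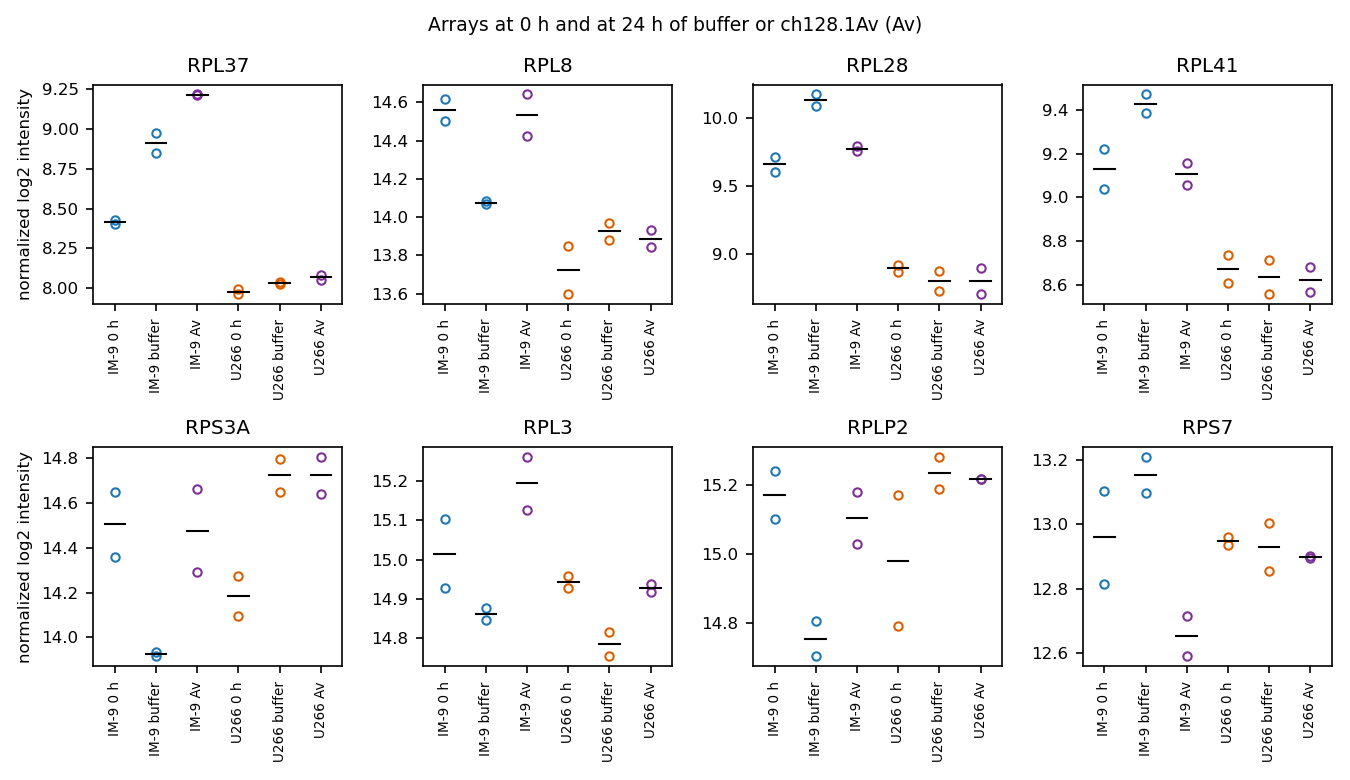
Normalized log2 intensity (y axis) of 8 members on the arrays at 0 h and at 24 h with buffer or ch128.1Av (Av) in each line; circles are arrays and bars their mean. Among the IM-9 arrays shown, RPL8, RPS3A and RPLP2 are lowest with buffer at 24 h, RPL28 and RPL41 are highest there, and RPL37 is highest with ch128.1Av at 9.21.

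At 1, 3 and 9 h of ch128.1Av no member was called in IM-9 by limma. All genes were called at 0%, 0.0173% and 0.0867% in these comparisons. At an unadjusted p under 0.05 there were 0, 0 and 3 members. The smallest p at 1 h belonged to RPL32 (-0.09), RPS29 (0.17) and RPL28 (0.11), with adjusted p = 1 for each. At 3 h it belonged to RPL27 (-0.10), RPS10 (-0.08) and RPL24 (0.17), with an adjusted p = 0.933 for each. At 9 h RPL27, a large-subunit protein, stood at 15.28 and 15.31 with buffer and 15.12 and 15.06 with treatment (-0.21, SE 0.070, adjusted p = 0.424), followed by RPL7L1 (-0.22, adjusted p = 0.513) and RPL12 (0.12, adjusted p = 0.557).

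In U266 the calls fell at 1 h. There 12 members were higher and 5 lower with ch128.1Av than with buffer, 24.3% of the members against 8.93% of all genes (4.49% higher, 4.44% lower). The median member difference was 0.06, against -0.01 over all genes. Of the higher members, 5 encode large-subunit and 7 small-subunit proteins, and of the lower ones 4 and 1. With equal array medians 23 were higher and 0 lower, while 0.52% of all genes were called.

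The array sets differed in this comparison. The buffer arrays had brightness ratios of 8.89 and 9.21 and the treated arrays of 5.62, 3.96 and 4.43, and all 3 treated arrays but neither buffer array were among the 7 of top signal over 60000. With the brightness ratio as a covariate 0 members were called, and with the top-signal set as a block 0 members were called as well. With each line fitted by itself there were 6. The count was 3 without buffer replicate 1, 3 without buffer replicate 2 and 6 without treated replicate 2.

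RPS3A was the member of smallest p at 1 h. It stood at 14.04 and 14.22 with buffer and at 14.79, 14.77 and 14.72 with treatment, with no overlap (0.63, SE 0.108, n = 3 and 2, adjusted p = 2.17e-03), and at 0.39 with the brightness ratio as a covariate (adjusted p = 0.113). RPS28 stood at 14.31 and 14.34 with buffer and at 14.90, 14.81 and 14.76 with treatment (0.49, SE 0.087, adjusted p = 2.24e-03), and at 0.25 with the covariate (adjusted p = 0.112). RPL6, a large-subunit protein, went from 14.12 and 14.15 to 14.82, 14.96 and 14.88 (0.75, SE 0.188, adjusted p = 0.0176). The treated arrays were all higher, yet the difference was 0.10 with the covariate (adjusted p = 0.490). RPS16 (0.67) and RPS18 (0.35), both of the small subunit's head, were 0.22 and 0.15 with the covariate (adjusted p = 0.388 and 0.416). Scaled to equal array medians, RPS16 and RPS18 stood at 1.34 and 0.59, and RPL6 at 0.95. RPL6 and RPS18 lost the call without either buffer array or treated replicate 2 (adjusted p = 0.0553 to 0.0998), and RPS16 without either buffer array (0.0624 and 0.0697).

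Of the lower members at 1 h, RPL34 stood at 11.58 and 11.50 with buffer and at 10.92, 11.16 and 11.26 with treatment (-0.43, SE 0.080, adjusted p = 3.21e-03), and lost the call without buffer replicate 1 (0.0535). Its second probe gave -0.11 (adjusted p = 0.622). RPL41 went from 8.89 and 8.98 to 8.71, 8.69 and 8.66 (-0.25, adjusted p = 0.0109), and lost the call without buffer replicate 2 (0.0978). RPL12 (-0.20), at the base of the stalk, RPS13 (-0.21) and RPL38 (-0.18), known in mice for its role in Hox mRNA translation, turned to 0.33, 0.38 and 0.65 with equal array medians. Each of these 3 lost the call without either buffer array or treated replicate 2 (adjusted p = 0.0540 to 0.235), and RPL38 also without treated replicate 3 (0.0807).

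No member was called in U266 by limma at 3, 9 or 24 h, where 0.00867%, 0.0433% (0.026% higher, 0.0173% lower) and 0.0173% of all genes were. At an unadjusted p under 0.05 there were 12, 6 and 2 members. RPS9, a small-subunit protein, had the smallest p at 3 h, at 14.81 and 14.92 with buffer and 14.60 and 14.63 with treatment (-0.25, adjusted p = 0.959), followed by RPS28 (0.24) and RPL14 (0.54). The brightness ratios at 3 h were 8.37 and 8.10 with buffer and 9.27 and 5.37 with treatment. Without treated replicate 2, 1 of the 7 arrays of highest top signal, 3 members were called at 3 h, or 4.29%, against 0.416% of all genes. At 9 h the smallest p belonged to RPL12 (0.14), RPS14 (-0.14) and RPL23A (-0.30), each with an adjusted p = 0.999. At 24 h RPL17 stood at 10.08 and 10.25 with buffer and 10.47 and 10.62 with treatment (0.38, SE 0.089, adjusted p = 0.180), followed by RPS4X (0.09) and RPL24 (0.26). Without buffer replicate 2 the count at 24 h was 1, or 1.43% of the members, while 3.6% of all genes were called.

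The lines differed in the 24 h effect of ch128.1Av in 4 members, 5.71% against 4.87% of all genes (2.38% higher, 2.49% lower). This test uses the IM-9 arrays of the 24 h comparison above and is no separate support for it. RPL37 and RPL8 rose in IM-9 and stood in U266 at 0.04 (SE 0.041) and -0.04 (SE 0.076). RPL37 lay at 8.03 and 8.04 with buffer and 8.06 and 8.08 with ch128.1Av in U266, and RPL8 at 13.97 and 13.88 and at 13.84 and 13.93. The RPL37 probe was detected on all 20 U266 arrays, but its level there was near the 7.71 of RPL10, which was detected on none. Whether a change of RPL37 could show at so low a level was not tested. The difference between the lines was 0.27 for RPL37 (SE 0.057, adjusted p = 7.99e-03) and 0.50 for RPL8 (SE 0.108, adjusted p = 8.23e-03). RPL28 and RPL41 fell in IM-9 and stood at -0.00 (SE 0.068) and -0.01 (SE 0.061) in U266, with a difference between the lines of -0.36 (SE 0.096, adjusted p = 0.0329) and -0.31 (SE 0.087, adjusted p = 0.0393). With equal array medians 0 of the 4 differences were called. The count ranged from 1 to 8 as single arrays were left out: 1 without U266 buffer replicate 1, 2 without treated replicate 2 of IM-9 or replicate 1 of U266, 6 without IM-9 buffer replicate 1 or U266 buffer replicate 2, and 8 without IM-9 treated replicate 1.

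In U266, at 24 h of buffer against 0 h, 11 members were higher and 3 lower, 20% of the members against 12.6% of all genes (5.62% higher, 7.03% lower). The median member difference was 0.08, against -0.0034 over all genes. The authors' deposited log2 values gave 11 higher and 0 lower, and equal array medians 1 higher and 0 lower. The brightness ratios were 11.7 and 6.55 at 0 h and 4.23 and 5.995 at 24 h, and with the ratio as a covariate 6 members were called, all higher. Leaving out replicate 1 of the 0 h arrays gave 6 calls, and leaving out replicate 1 or 2 of the 24 h arrays gave 3 or 9.

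RPS28 had the smallest p, at 14.18 and 14.46 at 0 h and 15.02 and 14.93 at 24 h (0.66, SE 0.095, adjusted p = 2.20e-04), with no overlap. It stayed called without any single array and in the 10 alternative processings that kept its probe, which leaves out the one without bright probes. RPL23, which can bind MDM2, went from 12.45 and 12.38 to 13.31 and 13.17 (0.82, SE 0.159, adjusted p = 2.34e-03), and was at 0.0509 without replicate 1 at 24 h. RPL7A, a large-subunit protein, went from 12.70 and 12.92 to 13.63 and 13.43 (0.72, SE 0.143, adjusted p = 2.82e-03), and missed the threshold when replicate 1 of either time was left out (0.0681 for 0 h, 0.0727 for 24 h). RPL13A, which can leave the ribosome to silence inflammatory mRNAs in myeloid cells, rose by 0.36 (SE 0.062, adjusted p = 8.65e-04) and RPS4X by 0.21 (SE 0.038, adjusted p = 1.35e-03). Under equal array medians RPL23, RPL7A, RPL13A and RPS4X stood at 0.67, 0.58, 0.27 and 0.14 and were not called (adjusted p = 0.137 to 0.676). The lower members were RPS23 (-0.21), RPL11 (-0.21) and RPL38 (-0.20). Each of these 3 lost the call without any 1 of the 4 arrays (adjusted p = 0.0681 to 0.277), and RPL11 and RPL38 turned to 0.35 and 0.33 with equal array medians. Whether these control changes differed between IM-9 and U266 was not tested.

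Across all 18 groups most members varied little. The SD of a member's 9 group means within a line had a median of 0.10 in both lines. In IM-9 it was largest for RPL27A (0.37), RPL7 (0.32), RPLP1 (0.30), RPL37 (0.27) and RPL32 (0.23), and smallest for RPL36A (0.02) and for RPS10, RPL11, RPL13A and RPS4X (0.03 to 0.04). In U266 it was largest for RPL27A (0.41), RPLP1 (0.37), RPL23 (0.30), RPS27L (0.28) and RPS16 (0.27), and smallest for RPL36A (0.01), RPS15A (0.02), RPS6 (0.03), RPL37 and RPL19 (both 0.04). The SD between arrays of a group, pooled over both lines, was 0.35 for RPLP1, so its group means may reflect array spread. It was 0.20 for RPL27A and RPL7, 0.04 for RPL37 and 0.05 for RPL32. For RPL23, RPS27L and RPS16 it was 0.17, 0.10 and 0.18. RPL36A is near background, RPL37 was low in U266 (7.96 to 8.13 over its arrays), and the probes of RPS10, RPL11, RPS15A, RPS6 and RPL19 are among the bright ones.

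RPL27A had the largest SD in both lines, and the difference between its courses was not tested. Its control group means at 0, 1, 3, 9 and 24 h were 10.37, 10.16, 10.26, 9.95 and 9.41 in IM-9 and 9.39, 9.19, 9.33, 9.53 and 10.18 in U266. The treated means at 1, 3, 9 and 24 h were 10.35, 10.14, 9.80 and 9.44 in IM-9 and 9.80, 9.39, 9.52 and 10.37 in U266. Buffer and ch128.1Av cells of a line thus were not called apart at 24 h (limma difference of 0.03 in IM-9, adjusted p = 0.950, and 0.19 in U266, adjusted p = 0.952).

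**Figure D5:**
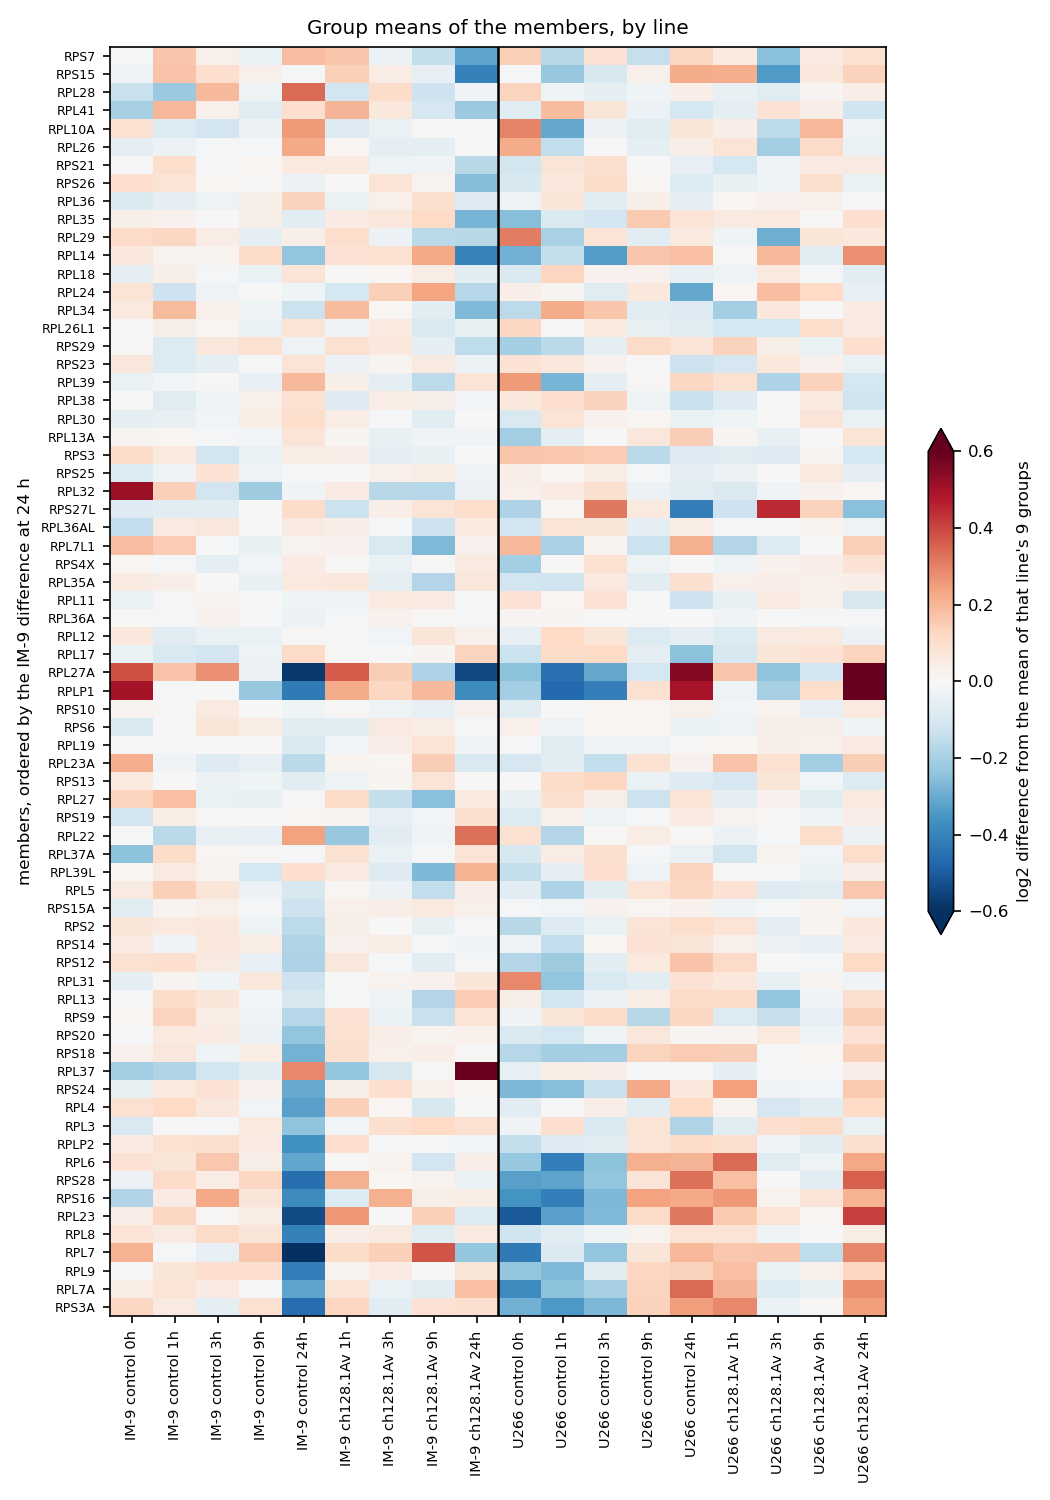
Group means of the 70 members (y axis, ordered by the IM-9 difference at 24 h) in the 18 groups (x axis), each as the log2 difference from the mean of the member's 9 groups in that line, red for higher and blue for lower. The IM-9 buffer group at 24 h is blue for the members at the bottom, such as RPS3A and RPL8, and RPL27A goes from red to blue over the hours in IM-9 and from blue to red in U266.

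Other genes of translation gave a mixed picture. FAU, whose product is cleaved to a small-subunit protein, was the only one tested of the ribosomal protein genes with other symbols and was called in none of the 12 comparisons (line difference -0.06, adjusted p = 0.112). Of 14 translation factors and partners whose mRNAs carry a TOP tract, 2 rose in IM-9 at 24 h of ch128.1Av, or 14.3%, near the 13.4% of all genes. EIF3H, a subunit of initiation factor eIF3, stood at 12.91 and 12.77 with buffer and 13.15 and 13.22 with treatment (0.35, SE 0.056, adjusted p = 1.95e-04), and NPM1, a nucleolar assembly chaperone, at 14.64 and 14.74 and at 14.89 and 15.09 (0.30, SE 0.082, adjusted p = 0.0162). In U266 at 1 h, where 14.3% of the list and 8.93% of all genes were called, NPM1 rose (0.34, adjusted p = 9.92e-03) and EIF3L fell (-0.24, adjusted p = 6.08e-03). Between the lines 8 of the 14 were higher and 5 lower in IM-9 (92.9%, against 82.9% of all genes) and the median was 0.15, led by HNRNPA1 (2.19, at means of 10.28 and 8.09, detected on 17 of 20 U266 arrays), EIF3H (-0.41) and EEF1D (1.26, detected on 15 of 19 IM-9 and 11 of 20 U266 arrays).

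Of 6 regulators tested, 1 changed with ch128.1Av at 24 h in IM-9, or 16.7%, near the 13.4% of all genes. RPS6KB1, the kinase that phosphorylates RPS6, stood at 10.71 and 10.83 in IM-9 with buffer for 24 h and at 10.31 and 9.76 with ch128.1Av, lower by 0.74 on average (difference of -0.74, SE 0.145, adjusted p = 1.38e-03). In U266 its arrays were 11.01 and 10.94 with buffer and 11.08 and 11.07 with treatment, and the difference between the lines was -0.84 (SE 0.205, adjusted p = 0.0195). Both treated IM-9 arrays were lower than the buffer arrays and unlike each other. At 0 h the IM-9 arrays stood at 10.48 and 10.26, so that treated replicate 1 lay between them. The dependence of this result on the brightness ratio or on single arrays was not tested, nor was that of other genes outside the family. MYC, which drives ribosomal protein and rRNA genes, had control means of 12.49 in IM-9 and 8.10 in U266 and was detected on all arrays (4.39, SE 0.027, adjusted p = 1.52e-34). The other 5 regulators also differed between the lines, where 82.9% of all genes did, MTOR higher in IM-9 (0.25) and RPS6KB1, EIF4EBP1, EIF4EBP2 and RPS6KB2 lower (-0.54, -0.43, -0.35 and -0.15).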

How the data were processed

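Total RNA (200 ng per sample, per the labels' protocols) was read on Illumina BeadChips in 39 samples. The deposited scanner files hold a linear intensity per probe and a detection score, a fraction, as found from the file headers, processed with BeadStudio per the submitters' processing notes (version not given in the sources used here). The authors also deposited log2 values, quantile-normalized as found from the values, which were used only as an alternative. Of the per-sample value columns, 2 were not used.

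Intensities were background-corrected, quantile-normalized and log2-transformed with neqc (limma 3.58.1, R 4.3.3, offset 16, detection p as 1 minus the score). A probe entered the fit if 2 or more arrays had it at a detection p below 0.01 (12080 probes), and 520 genes with several such probes were represented by that of highest mean. Means of the 18 groups were fitted with lmFit and eBayes (21 residual degrees of freedom), in 12 two-sided comparisons, with Benjamini-Hochberg adjustment over all genes in each. The number of arrays limits the precision. The method was tested on simulated data. Of all probes, 2257 had no symbol.

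Members and lists were chosen with earlier results of these data known. Named genes were RPLP0, RPLP1, RPLP2, RPSA, RPS6, RPS19, RPS4X, RPL3, RPL5, RPL10, RPL11 and the paralog pairs, where measured, the 8 called members of largest line difference in each direction, the 5 called members of smallest p in each direction elsewhere (or 3 where none was called), the 5 most and 5 least variable members of each line, and the 3 genes of smallest p in other lists. Other genes were named after their values were seen. Alternatives changed the normalization, background correction, detection filter, probe choice, arrays, bright probes, brightness covariate, top-signal block and replicate block.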

Additional observations from a re-analysis of the deposited data

Results flagged for a closer look

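The effect of 24 h of ch128.1Av differed between the lines in 4 members by the test of the difference itself (IM-9 minus U266, limma adjusted p), 5.71% of the members and near the 4.87% of all genes. It was 0.27 for RPL37 (adjusted p = 7.99e-03), 0.50 for RPL8 (8.23e-03), -0.36 for RPL28 (0.0329) and -0.31 for RPL41 (0.0393). With the brightness ratio as a covariate the values were 0.29 (adjusted p = 0.0155), 0.30 (0.0327), -0.33 (0.143) and -0.27 (0.208). With equal array medians 0 of the 4 were called, and RPL37 turned to -0.060 (adjusted p = 0.902). RPL37 also lost the call without background correction and with the authors' values, 3 of 10 alternatives in all, and kept it without any single array. Its level in U266 was close to background. RPL8 lost it without IM-9 treated replicate 2 (0.0917), U266 buffer replicate 1 (0.0539) or U266 treated replicate 1 (0.0528), and RPL28 and RPL41 each lost it without any 1 of 4 arrays (0.152 to 0.185 and 0.168 to 0.232). Groups of 2 or 3 arrays are too small for a check for single outlying arrays.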

How the results depend on the processing

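For the 69 called results that were followed, 557 of 689 values under other processing kept direction and call, 116 lost the call and 16 changed sign, and of 670 values with 1 array left out 581 kept the call and 89 lost it. The number of members called at 24 h in IM-9 was 7 without bright probes and 10 with the brightness covariate. At 1 h in U266 it was 5 without bright probes, 6 with each line by itself and 0 with the covariate or the top-signal block. At 3 h in U266 it was 3 with the top-signal arrays left out, an alternative chosen after seeing the data. For the line difference in the 24 h effect it was 0 with equal medians, 1 without background correction, 1 with the authors' values and 8 with the top-signal block. Over control arrays it was 25 without bright probes, where fewer genes were tested. For IM-9 buffer at 24 h against 0 h it was 9 with equal medians and 9 without bright probes, and for U266 1, 5, 9 and 6 with equal medians, without bright probes, with each line by itself and with the covariate. The cause was not tested.

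With 1 array left out the counts ran from 6 to 17 (IM-9 24 h), 3 to 17 (U266 1 h), 0 to 3 (U266 3 h), 0 to 1 (U266 24 h), 1 to 8 (line difference in effect), 45 to 49 (control arrays), 14 to 18 (IM-9 buffer) and 3 to 19 (U266 buffer). With equal medians, sign changed for RPL37 at 24 h in IM-9 (-0.056) and in the line difference (-0.060), for RPL12 (0.33), RPS13 (0.38), RPL38 (0.65) and RPL11 (0.74) at 1 h in U266, for RPL30 (0.087), RPL35 (0.056), RPL18 (0.19), RPS13 (0.25), RPS19 (0.31) and RPL11 (0.34) between lines, and for RPL38 (0.33) and RPL11 (0.35) in U266 buffer. On 0 h arrays alone it changed between lines for RPLP1 (0.14), RPL35 (0.063), RPS13 (0.00043), RPS6 (-0.064) and RPL39 (-0.16), and with the covariate for RPLP2 (-0.076). Equal medians moved all genes by -0.15 (IM-9 24 h), 0.13 (IM-9 buffer), 0.11 (IM-9 1 h), -0.23 (U266 3 h) and 0.16 (U266 9 h).

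Deviations of same-numbered treated and buffer arrays from their group means had no common sign over all genes (correlations from -0.70 to 0.29). Some were far from 0, at -0.70 for replicate 1 in U266 at 1 h and -0.47 in IM-9 at 24 h. The arrays of these comparisons therefore cannot be taken to vary independently. With the replicate number as a block, 17 members were called at 24 h in IM-9, 18 at 1 h in U266, 3 for the line difference in effect, 43 over control arrays, 18 for IM-9 buffer and 11 for U266 buffer.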

Other observations

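A second probe passed detection for 4 members. For RPL32 the line difference was 0.50 by the brighter probe and 0.12 by the other (limma adjusted p = 3.93e-04). For RPL34 the second probe fell at 24 h of ch128.1Av in IM-9 (-0.50, adjusted p = 0.0161), where the probe used was not called (-0.14). For RPS29 the second probe rose at 1 h in U266 (0.81, adjusted p = 0.0145), against 0.30 (adjusted p = 0.0621) by the probe used. For RPL36, lower at 24 h of ch128.1Av in IM-9 by the probe used (-0.22), the second probe gave 0.38 (adjusted p = 0.175). RPS19BP1, left out of the family, differed between the lines in its 24 h effect by 0.83 (adjusted p = 0.0424). Its U266 arrays at 24 h stood at 11.85 and 11.22 with buffer and at 11.22 and 11.11 with ch128.1Av. The dependence of this difference on buffer replicate 1 of U266 was not tested.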
